A study of Mus musculus with 8 samples.

Results

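The genes described here are 36 chaperones, disulfide isomerases, stress sensors, degradation factors and translocon subunits of the endoplasmic reticulum (ER), the set that carries out and regulates the unfolded protein response. They were taken by mouse gene symbol, and each of the 36 matched 1 of the 41388 genes counted in every library. RNA was sequenced from brown adipose tissue of 8 C57BL/6J mice on regular chow at room temperature, after depletion of ribosomal RNA from total RNA. The 4 WT mice carried floxed Nampt alleles (labelled Wild type, flox/flox). The 4 ANKO mice had an adipocyte-specific Nampt knockout, made by crossing floxed Nampt mice with an adiponectin-Cre transgene, so that other cells of the tissue keep the gene. Both groups share the C57BL/6J label, and age and sex are not given in the labels. Nampt makes nicotinamide mononucleotide, the precursor of NAD+ in the salvage pathway, and the comparison asks what its loss in adipocytes does to the transcripts of brown fat.

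The ER folds secreted and membrane proteins with the help of HSP70 and HSP90 chaperones, lectins that bind sugar chains, and enzymes that form disulfide bonds. When unfolded proteins accumulate, the membrane sensors IRE1 (gene Ern1), PERK (Eif2ak3) and ATF6 start the unfolded protein response: IRE1 splices Xbp1 mRNA, PERK phosphorylates the translation factor eIF2 and favours ATF4 and CHOP, and ATF6 is cut in the Golgi to release a transcription factor. Their targets are chaperones and the ER-associated degradation (ERAD) machinery, which pulls misfolded proteins out to the proteasome. In fat this system is best known for its part in secretion and lipid synthesis. Splicing of Xbp1, cleavage of ATF6 and phosphorylation of PERK are not measured by gene counts.

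The classical promoter element of this response is the ER stress element (ERSE), searched here as CCAAT and CCACG with 9 bases of any kind between them, on either strand, which ATF6 and XBP1 bind together with NF-Y. RefSeq's promoter table for GRCm38.p6 (250 bases before to 50 after the start of a gene) held 32 of the 36 genes. An exact ERSE was found in 10 of these 32 promoters (31.2%) and in 35 of all 27025 promoters of the table (0.13%). Not every target holds one: Dnajb9, which XBP1 induces, had only the CCACG part. The sites are printed so that the transcript levels below can be read against them. Each is given in the sense of the motif with 5 bases on either side, the motif in capitals, and positions counted from the RefSeq start.
Hspa5, chr2:34772020-34772048, plus strand, motif from -65 to -47: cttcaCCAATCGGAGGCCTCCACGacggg
Hsp90b1, chr10:86705633-86705661, minus strand, motif from -212 to -194: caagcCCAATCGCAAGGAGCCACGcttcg
Hsp90b1, chr10:86705528-86705556, plus strand, motif from -107 to -89: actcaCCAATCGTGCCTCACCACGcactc
Dnajc3, chr14:118937822-118937850, plus strand, motif from -105 to -87: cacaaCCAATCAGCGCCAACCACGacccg
Creld2, chr15:88819515-88819543, minus strand, motif from -126 to -108: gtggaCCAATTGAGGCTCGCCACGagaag
Calr, chr8:84847070-84847098, plus strand, motif from -162 to -144: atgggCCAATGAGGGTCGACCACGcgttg
Canx, chr11:50325795-50325823, minus strand, motif from -145 to -127: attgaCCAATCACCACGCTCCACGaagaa
Pdia6, chr12:17266486-17266514, plus strand, motif from -98 to -80: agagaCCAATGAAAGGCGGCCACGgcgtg
Ero1lb, chr13:12565677-12565705, minus strand, motif from -201 to -183: ggcggCCAATGAGGCGGGACCACGaggcc
Syvn1, chr19:6046527-6046555, plus strand, motif from -44 to -26: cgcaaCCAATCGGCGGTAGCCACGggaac
Derl3, chr10:75893237-75893265, minus strand, motif from -156 to -138: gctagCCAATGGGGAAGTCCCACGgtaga

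The related ERSE-II, ATTGG and CCACG with 1 base of any kind between them, was present in 2 of the 32 promoters (6.25%) against 10 of all 27025 (0.037%). These were Herpud1 and Dnajb11, and the Dnajb11 site lies just after the start.
Herpud1, chr8:94386372-94386392, plus strand, motif from -52 to -42: cgctgATTGGGCCACGttgga
Dnajb11, chr16:22857847-22857867, plus strand, motif from 8 to 18: cggcgATTGGCCCACGcctgg

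The XBP1 core TGACGTGG occurred in 1 of the 32 promoters, that of Vcp, and in 0.607% of all. The CHOP-ATF4 composite TGATGNAAN occurred in 1 of the 32, that of Herpud1, and in 4.04% of all. The short element CCACG, which is part of both ERSE forms, was in 25 of the 32 (78.1%) and in 32.7% of all. Such matches describe letters in a window and are not evidence of binding in these mice.

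Libraries held 21771276 to 49697156 counts in WT and 5738067 to 26426476 in ANKO, so low genes are measured with less precision in ANKO. Nampt itself fell from 508 ± 42.2 to 72.3 ± 4.67 CPM (read counts relative to the scaled total of the library; SD, n = 4 each). Adipocyte markers were abundant in all 8 libraries, with a sum of 14 genes of 24400 to 38251 CPM in WT and 9469 to 15256 CPM in ANKO (13 lower, 1 higher by edgeR). Skeletal muscle markers (16 genes, 12 called higher) summed to 42.7 to 3137 CPM in WT and 11725 to 16802 CPM in ANKO, and within WT they were lower in WT3 and WT4 (139 and 42.7 CPM) than in WT1 and WT2 (1101 and 3137 CPM). Markers of macrophages (16 genes, 15 called higher) summed to 172 to 239 CPM in WT and 1689 to 2512 CPM in ANKO, and of fibroblasts (10 genes) to 1170 to 1601 and 4613 to 8549 CPM. In whole tissue, fewer cells of a type and less RNA per cell cannot be told apart.

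The ER chaperone and unfolded protein response genes did not move as a block in brown fat without adipocyte Nampt. Of the 36 genes, 9 were higher in ANKO, 6 were lower and 21 did not pass the test (edgeR quasi-likelihood test, Benjamini-Hochberg adjusted p under 0.05 over 16705 genes). Across all genes tested 58.2% were called, 30.6% higher and 27.6% lower, while the 36 gave 25% higher and 16.7% lower. The median log2 fold change was -0.01 for the 36 and -0.01 for all genes, but the medians differed at like WT level. At 100 CPM or more the median was -0.10 for the 36 and -0.47 for all genes. At 10 to 100 CPM it was -0.02 and -0.17, and at 1 to 10 CPM, with 3 of the 36, it was 1.23 and 0.31. The split of calls moved with the scaling, for the 36 and for all genes (5111 higher and 4615 lower in the main fit). Upper quartile factors gave 12 higher and 5 lower of the 36, beside 5522 and 3825 of all genes. Library totals alone gave 13 higher and 2 lower, beside 5897 and 2940 of all genes. On library totals the median of all genes went from -0.01 to 0.17. With no filter on low counts the split was 6 higher and 7 lower, beside 5796 and 4798 of all 28024 genes then tested. The 4 WT and 4 ANKO libraries did not overlap for 14 of the 36 genes, 9 in the higher and 5 in the lower direction, where 55% of all genes did not overlap, 28.7% higher and 26.4% lower. Of the 15 genes among the 36 with a WT mean of at least 100 CPM, 3 were lower and 3 higher, whereas 62.3% of all 2012 genes at that level were lower and 6.61% higher. With the skeletal muscle level as a covariate, 4 of the 36 were higher (Sdf2l1, P4hb, Ern1 and Derl3) and 0 were lower by edgeR, beside 2175 and 1582 of all genes. This level (mean log2 CPM) was higher in every ANKO library than in any WT library, at 8.72 to 9.11 against 0.69 to 6.55. The fit with the covariate therefore cannot tell muscle level from genotype, and its slope rests mainly on the spread within WT. Without WT3 and WT4, 9 of the 36 were higher and 4 lower, beside 4546 and 3737 of all 16770 genes then tested.

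**Figure D1:**
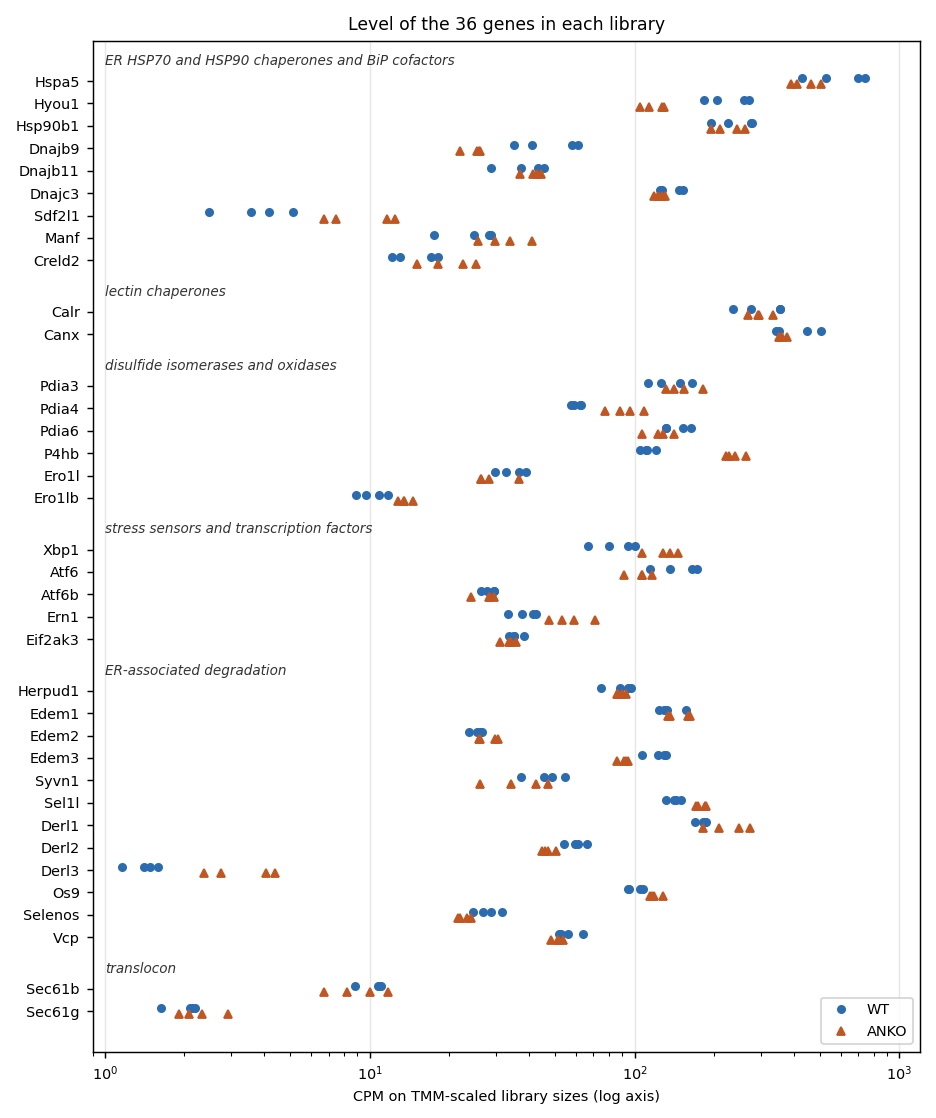
CPM on scaled library sizes (log axis) of each of the 36 genes in the 4 WT (circles) and 4 ANKO (triangles) libraries, grouped by role. P4hb, Sdf2l1 and Derl3 separate with ANKO to the right, Hyou1 and Dnajb9 with ANKO to the left, and most of the large chaperones overlap.

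**Figure D2:**
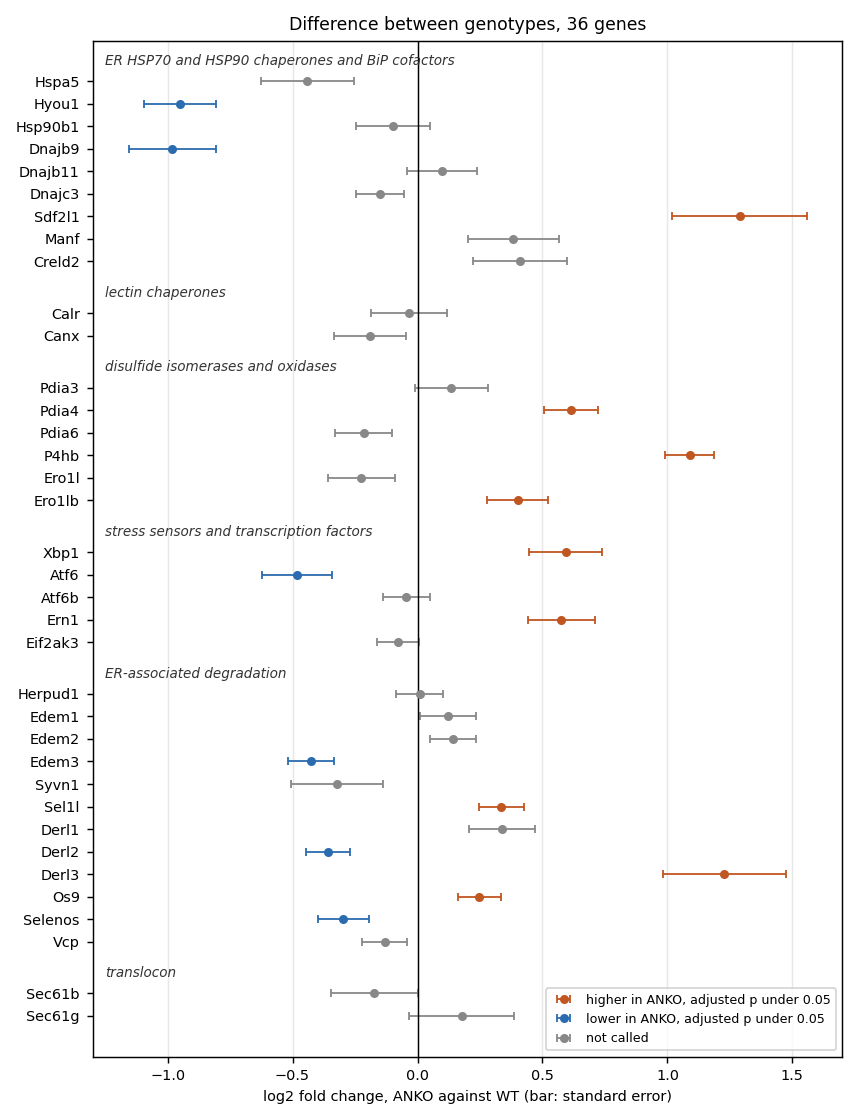
Log2 fold change of ANKO against WT for the 36 genes, with standard errors from the edgeR fit, grouped by role and coloured by call. The 9 higher and 6 lower genes are spread over 4 of the 6 roles, and values run from -0.98 (Dnajb9) to 1.29 (Sdf2l1).

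Compared per kilobase of gene length, the lectins and the HSP70 and HSP90 chaperones were the most abundant of the 36 transcripts. Hspa5 ranked highest in WT at 170.4 ± 41.6 RPKM (CPM per kilobase of gene length; SD, n = 4), followed by Calr at 106 ± 20.7, Canx at 87.7 ± 16.7, Hsp90b1 at 60.3 ± 10.1 and Derl1 at 57.3 ± 2.55 RPKM. Calr and Canx differed by less than their spread, as did Hsp90b1 and Derl1. P4hb was 7th in WT at 39.1 ± 2.19 RPKM and 3rd in ANKO at 83.2 ± 6.49 RPKM, and Hyou1 went from 10th (31.6 ± 5.83 RPKM) to 17th (16.4 ± 1.58 RPKM). The sensors were far lower, with Atf6 at 15.9 ± 2.86, Eif2ak3 at 6.54 ± 0.352 and Ern1 at 4.73 ± 0.505 RPKM in WT. Derl3 (1.06 ± 0.136 RPKM) and Sec61g (0.818 ± 0.105 RPKM) were the lowest in WT and remained so in ANKO.

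Hspa5 encodes BiP, the HSP70 of the ER and the standard readout of the response, and lies at chromosome 2, 34771970 to 34776531, plus strand (GRCm38). It read 429.7, 526, 698 and 741 CPM in WT1 to WT4, and 388, 410.2, 462 and 504 CPM in ANKO1 to ANKO4. The groups overlapped only through WT1, which lay within the ANKO range, while WT2, WT3 and WT4 lay above every ANKO library. Its log2 fold change of -0.44 ± 0.19 (SE) did not pass the test (edgeR adjusted p = 0.0631). By exact permutation of the 8 libraries (two-sided, log2 CPM), p was 0.114. Hspa5 was called lower when WT1 (log2 fold change -0.59, edgeR adjusted p = 0.0125) or ANKO4 (-0.52, adjusted p = 0.0475) was left out, and with DESeq2 (-0.45, adjusted p = 0.0360). It was also called lower with no filter on low counts and with a block for replicate number. In all, Hspa5 was called in 5 of the 22 alternative settings. Without WT3 and WT4 the log2 fold change was -0.13 (adjusted p = 0.553), and with the muscle covariate it was 0.16 ± 0.29 (SE; adjusted p = 0.735).

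Cofactors of BiP went in opposite directions. Dnajb9 (ERdj4), a J-domain cochaperone induced by XBP1 that holds IRE1 inactive, was 1.97-fold lower in ANKO (chromosome 12, 44205897 to 44210068, minus strand). Its levels were 35.1, 41.1, 61.1 and 58.2 CPM in WT1 to WT4 and 22.0, 25.9, 26.1 and 25.4 CPM in ANKO1 to ANKO4. All ANKO libraries lay below all WT libraries, and the log2 fold change was -0.98 ± 0.17 (SE; edgeR adjusted p = 0.000848; exact permutation p = 0.0286, the smallest that 4 against 4 libraries allow). Hyou1 (GRP170), the nucleotide exchange factor that resets BiP, was 1.93-fold lower (chromosome 9, 44379490 to 44392369, plus strand). It read 183, 204, 259 and 269.8 CPM in WT1 to WT4 and 105, 113, 129 and 126 CPM in ANKO1 to ANKO4. Again no ANKO library reached the WT range (log2 fold change -0.95 ± 0.14 SE, edgeR adjusted p = 0.000306). With the muscle covariate neither gene was called, at -0.32 (standard error 0.22) for Dnajb9 and -0.49 (standard error 0.21) for Hyou1, a smaller difference for both. Without WT3 and WT4 both stayed called, at -0.64 and -0.72.

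Sdf2l1, a partner of the J-domain protein ERdj3 that helps keep misfolded proteins soluble, was the gene of the set with the largest rise, 2.44-fold (chromosome 16, 17130138 to 17132383, minus strand). It read 2.48, 3.57, 4.18 and 5.14 CPM in WT1 to WT4 and 6.73, 7.49, 12.5 and 11.7 CPM in ANKO1 to ANKO4, from 50 to 226 counts in WT and 65 to 176 counts in ANKO. Every ANKO library was above every WT library (log2 fold change 1.29 ± 0.27 SE, edgeR adjusted p = 0.00225). It was called under each of the 22 alternative settings, with log2 fold changes from 1.11 to 1.88. Manf and Creld2, small secreted proteins of the response, had higher means in ANKO without passing the test: 24.7 ± 5.17 to 32.5 ± 6.52 CPM for Manf and 15.1 ± 2.94 to 20.3 ± 4.50 CPM for Creld2 (edgeR adjusted p = 0.0933 and 0.0829). Both passed without ANKO1 (log2 fold changes 0.49 and 0.54) and without WT3 and WT4 (0.60 and 0.66). Both also passed with upper quartile factors (0.48 and 0.51), on library totals (0.59 and 0.62) and with a block for replicate number. Each was thus called in 5 of the 22 alternative settings. Hsp90b1 (GRP94, the HSP90 of the ER), Dnajb11 (ERdj3) and Dnajc3 (p58IPK, an inhibitor of PERK) had log2 fold changes of -0.10, 0.10 and -0.15 and were not called. The sign of Hsp90b1 and Dnajc3 turned with library totals as scaling. Of the exon bases of Hsp90b1, 15.7% are shared with annotated neighbours on either strand.

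The WT libraries themselves differed in chaperone level. In all 9 HSP70, HSP90 and BiP cofactor genes WT3 and WT4 were both above WT1 and WT2, as in both lectins and in 25 of the 36 genes, against 29.3% of all genes tested. Their summed level was 1028, 1202, 1542 and 1588 CPM in WT1 to WT4 and 922, 976, 1096 and 1167 CPM in ANKO1 to ANKO4. WT1 therefore lay within the ANKO range, and the WT spread (mean 1339.8 ± 270.3 CPM) was wider than that of ANKO (1040.1 ± 111 CPM). WT3 and WT4 were also the libraries with the highest adipocyte marker sums (38251 and 35561 CPM, against 24400 and 26469 CPM in WT1 and WT2), the lowest muscle marker sums and the most counts. Ucp1 and Lpl differed most in CPM among the adipocyte markers. Ucp1 read 3369 and 4170 CPM in WT1 and WT2, and 8829 and 7430 CPM in WT3 and WT4. Adipoq, Fabp4 and Pparg were also higher in WT3 and WT4, while Plin1, Lipe, Cidea and Lep were not. Whether the marker levels or the depth account for the chaperone levels was not tested. Among the 12 degradation genes WT3 and WT4 were both above WT1 and WT2 in 6 and both below in 4 (29.3% and 32.5% of all genes), and their sums ran from 966 to 999.7 CPM in WT and from 1015 to 1069 CPM in ANKO.

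**Figure D3:**
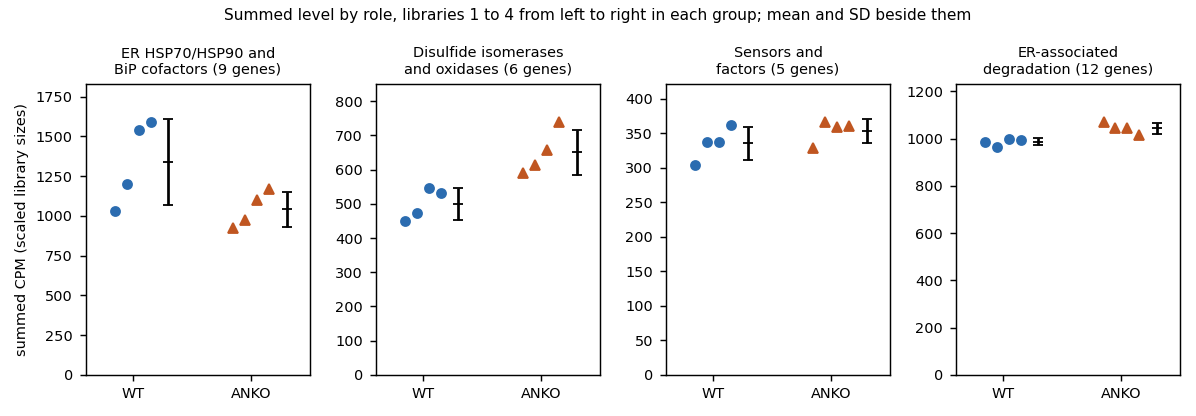
Summed CPM of 4 role groups in each library (points), with the mean and SD of the 4 libraries beside them. The chaperone sum runs from 1028 to 1588 CPM within WT, and the disulfide enzyme sum of each ANKO library lies above every WT library, a separation that is lost without P4hb.

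The lectin chaperones did not pass the test. Calr (calreticulin) averaged 304 ± 59.7 CPM in WT against 297 ± 26.9 in ANKO, and Canx (calnexin) at 411 ± 78.6 and 361 ± 11.2 CPM (SD, n = 4 each). Their log2 fold changes of -0.03 and -0.19 had standard errors of 0.15 and 0.14, and both signs turned with library totals as scaling and without WT3 and WT4 (0.21 and 0.04).

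Among disulfide enzymes 3 of 6 were higher in ANKO and 0 were lower, beside 30.6% and 27.6% of all genes tested. P4hb, a protein disulfide isomerase that is also the β subunit of collagen prolyl 4-hydroxylase, rose 2.13-fold with the smallest p of the 36 (chromosome 11, 120560298 to 120573253, minus strand). It read 105, 110.5, 112 and 120.3 CPM in WT1 to WT4 and 226, 222, 239.8 and 264 CPM in ANKO1 to ANKO4. The groups were far apart relative to their spread (log2 fold change 1.09 ± 0.10 SE, edgeR adjusted p = 9.96e-06), and P4hb was called under each of the 22 alternatives, at 1.03 to 1.28. All 10 fibroblast markers were also higher in ANKO, led by Col1a1 (85.6 ± 17.6 CPM in WT, 715 ± 340 in ANKO), and their part in the P4hb difference was not tested. Pdia4 (ERp72) rose 1.53-fold, from 57.5, 62.5, 59.1 and 62.7 CPM in WT1 to WT4 to 77.7, 87.8, 95.8 and 109 CPM in ANKO1 to ANKO4. No ANKO library of Pdia4 fell in the WT range (log2 fold change 0.61 ± 0.11 SE, edgeR adjusted p = 0.000776). With the muscle covariate it kept its size but not its call (0.61, standard error 0.21, adjusted p = 0.0618).

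The 2 oxidases that pass electrons from these isomerases to oxygen differed in call. Ero1lb (ERO1β) rose 1.32-fold, from 10.3 ± 1.27 to 13.6 ± 0.724 CPM (edgeR adjusted p = 0.0178), and lost its call without WT2 (log2 fold change 0.36, adjusted p = 0.0529) or WT3 (0.33, adjusted p = 0.0534). It was also lost with no filter on low counts, without WT3 and WT4 together, and with thinning to the lowest total. The muscle covariate and a threshold of 0.01 removed it as well, so Ero1lb was called in 15 of the 22 alternative settings. Ero1l (ERO1α) was at 34.5 ± 4.09 and 29.4 ± 4.91 CPM and was not called (log2 fold change -0.22 ± 0.13 SE, adjusted p = 0.170), though it was called lower without ANKO1 (-0.36, adjusted p = 0.0305). The difference between the 2 oxidases was not tested. Pdia3 (ERp57, partner of the lectins) and Pdia6 (P5) were not called, at log2 fold changes of 0.13 and -0.22. Summed over the 6 enzymes, levels were 449 to 547 CPM in WT and 592 to 739 CPM in ANKO. This separation rested on P4hb: the other 5 enzymes summed to 344 to 435 CPM in WT and 365 to 475 CPM in ANKO, and overlapped.

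Of the sensors, both genes of the IRE1 branch were higher in ANKO at the transcript level. Xbp1, the substrate of IRE1 and a transcription factor of secretory cells, rose 1.51-fold (chromosome 11, 5520659 to 5525893, plus strand). It read 94.8, 100.7, 66.9 and 79.8 CPM in WT1 to WT4 and 106, 128, 136 and 146 CPM in ANKO1 to ANKO4. The lowest ANKO library lay just above the highest WT library (log2 fold change 0.59 ± 0.15 SE, edgeR adjusted p = 0.00550). Xbp1 ran against the chaperones within WT, with WT3 and WT4 below WT1 and WT2. It stayed called without WT3 and WT4 (log2 fold change 0.39, adjusted p = 0.0454) and was not called with the muscle covariate (0.17, standard error 0.22, adjusted p = 0.638). The count holds spliced and unspliced Xbp1 together. Ern1, the gene of IRE1, rose 1.49-fold from 38.6 ± 4.13 to 57.8 ± 10.02 CPM, with no overlap between the groups (log2 fold change 0.58, edgeR adjusted p = 0.00392), and was called under each of the 22 alternatives.

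The ATF6 and PERK sensors gave no rise. Atf6 was 1.40-fold lower, at 115, 136, 165 and 172 CPM in WT1 to WT4 and 116, 106, 107 and 91.2 CPM in ANKO1 to ANKO4. WT1 and ANKO1 overlapped, and the other WT libraries were above all of ANKO (log2 fold change -0.48 ± 0.14 SE, edgeR adjusted p = 0.0125; exact permutation p = 0.0571). Atf6 lost its call without WT3 and WT4 (-0.27, adjusted p = 0.106) and with the muscle covariate (-0.05, adjusted p = 0.9004). It was also lost on library totals (-0.30), with thinning to the lowest total and at an adjusted p under 0.01. Atf6 was thus called in 17 of the 22 alternative settings. Its relative Atf6b was at 28.3 ± 1.48 and 27.5 ± 2.33 CPM, and Eif2ak3, the gene of PERK, at 35.5 ± 1.91 and 33.6 ± 1.90 CPM, with neither called (edgeR adjusted p = 0.705 and 0.441). Eif2ak3 had the smallest standard error of the 36, 0.08 on the log2 scale.

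Genes of ER-associated degradation were mixed, with 3 of 12 higher, 3 lower and 6 not called. These are 25% in each direction, near the 30.6% higher and 27.6% lower of all genes tested. Derl3, a derlin of the channel that is an XBP1 target and is abundant in secretory cells such as plasma cells, rose 2.34-fold (chromosome 10, 75893398 to 75895941, plus strand). The 250 bases before its start, which RefSeq and the counted gene share, are shown because this is the called gene with the largest change that holds an ERSE (in capitals, on the minus strand relative to the gene).
Derl3, chr10:75893148-75893397, plus strand: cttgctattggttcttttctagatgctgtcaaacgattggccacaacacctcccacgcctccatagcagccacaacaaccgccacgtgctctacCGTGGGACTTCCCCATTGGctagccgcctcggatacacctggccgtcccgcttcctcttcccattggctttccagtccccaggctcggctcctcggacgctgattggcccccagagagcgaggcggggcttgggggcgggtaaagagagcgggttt

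Derl3 read 1.49, 1.17, 1.40 and 1.59 CPM in WT1 to WT4 and 2.76, 4.38, 2.36 and 4.08 CPM in ANKO1 to ANKO4. The groups did not overlap (log2 fold change 1.23 ± 0.24 SE, edgeR adjusted p = 0.00169). These levels rest on 30 to 70 counts in WT and 25 to 72 counts in ANKO, and Derl3 lost its call in libraries thinned to the lowest total, the 1 setting of 22 in which it did. Markers of B and plasma cells were higher too: 10 of the 12 tested, with 1 lower, and a sum of 161 to 267 CPM in WT and 378 to 788 CPM in ANKO. Jchain, which joins secreted antibodies, went from 2.28 ± 1.295 to 88.1 ± 32.9 CPM, and the plasma cell ER protein Mzb1 from 0.0913 ± 0.0921 to 1.81 ± 0.811 CPM, with 0 counts in WT2. The 1 lower marker was Irf4, which brown adipocytes also express. Irf4 made up most of the WT sum, at 133 to 242 CPM in WT and 20.0 to 62.5 CPM in ANKO. The sum therefore understates the rise of the other markers. The part of B and plasma cells in the rise of Derl3, Sdf2l1 and Xbp1 was not tested.

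The other called degradation genes changed by less. Sel1l, the scaffold of the HRD1 ubiquitin ligase, was 1.26-fold higher, at 142 ± 7.89 in WT and 179 ± 8.08 CPM in ANKO, with no overlap (log2 fold change 0.34, edgeR adjusted p = 0.00810). Os9, a lectin that hands substrates to Sel1l, was 1.19-fold higher, from 100.8 ± 6.63 to 119.6 ± 6.09 CPM (adjusted p = 0.0289). Edem3, a mannosidase that marks glycoproteins for degradation, was 1.34-fold lower: 107, 122, 129 and 132 CPM in WT1 to WT4 and 85.5, 92.5, 94.9 and 91.6 CPM in ANKO1 to ANKO4. Its groups did not overlap (log2 fold change -0.43 ± 0.09 SE, edgeR adjusted p = 0.00269). Derl2, another derlin, was 1.28-fold lower: 54.2, 59.4, 66.0 and 61.4 CPM in WT1 to WT4 and 45.8, 47.1, 44.9 and 50.4 CPM in ANKO1 to ANKO4. Here too the ANKO libraries lay below all WT libraries (log2 fold change -0.36 ± 0.09 SE, edgeR adjusted p = 0.00541). Selenos, a selenoprotein that recruits the ATPase p97, was 1.23-fold lower, from 27.9 ± 3.05 to 22.7 ± 1.23 CPM (adjusted p = 0.0285).

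Os9 and Selenos were the least stable of the calls. Os9 was called in 2 of the 8 fits that leave out 1 library, those without WT3 or ANKO4, with adjusted p from 0.0321 to 0.106 over the 8. Selenos was called in 3 of the 8, those without WT1, WT2 or ANKO4, with adjusted p from 0.00856 to 0.0791. With the muscle covariate none of the 5 kept its call: the log2 fold changes were 0.22 for Sel1l, 0.43 for Os9, -0.26 for Edem3, -0.22 for Derl2 and -0.09 for Selenos. On library totals Edem3 (-0.24), Derl2 (-0.17) and Selenos (-0.11) lost their calls. Derl2 and Selenos also lost theirs with thinning to the lowest total, and Selenos with upper quartile factors (-0.20).

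The remaining degradation genes were not called. Derl1, the most abundant derlin, was close to the threshold with 180.3 ± 8.02 CPM in WT against 228 ± 40.8 in ANKO (log2 fold change 0.34, edgeR adjusted p = 0.0506). It was called higher in 7 of the 22 alternative settings. Among these were DESeq2, upper quartile factors, library totals, thinning and the fit without ANKO4 (0.43, edgeR adjusted p = 0.00865). Its ANKO libraries ran from 181 to 273 CPM, and ANKO4 was the one inside the WT range. Herpud1, which is among the most readily induced genes of the response and carries the ERSE-II above, averaged 88.5 ± 9.68 CPM in WT against 89.0 ± 3.22 in ANKO (log2 fold change 0.01, standard error 0.10). Edem1 and Edem2, mannosidase-like partners of Edem3, had log2 fold changes of 0.12 and 0.14. Syvn1, the HRD1 ligase itself, and Vcp, the p97 ATPase, had -0.32 and -0.13. The translocon subunits Sec61b and Sec61g were not called, at 10.4 ± 1.06 and 9.18 ± 2.19 CPM and at 2.02 ± 0.258 and 2.31 ± 0.447 CPM, the latter from 16 to 92 counts per library.

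Hyou1, Manf, Atf6 and Derl1, of which Hyou1 and Atf6 were called lower, had no promoter in the table and were not searched. Of the 10 genes with an exact ERSE, 2 were higher (Ero1lb and Derl3), 0 were lower and 8 were not called, with a median log2 fold change of -0.12. Those not called include Hspa5, Hsp90b1, Calr and Pdia6, which are targets of ATF6. Sdf2l1 and Pdia4, which were higher, and Dnajb9, which was lower, had no exact ERSE. Of the 22 promoters without an exact ERSE, 7 were higher, 4 lower and 11 not called, with a median of 0.11. The ERSE genes were also the more abundant, with a median WT level of 32.6 RPKM against 14.2 RPKM, and 58.2% of all genes tested were called. With 1 mismatch allowed, 16 of the 32 promoters held an ERSE, of which 4 genes were higher and 0 lower. The difference between the 2 sets of promoters was not tested. Outside the 36, 25 promoters of the table held an exact ERSE, of which 7 genes were tested, 1 was higher and 2 were lower.

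**Figure D4:**
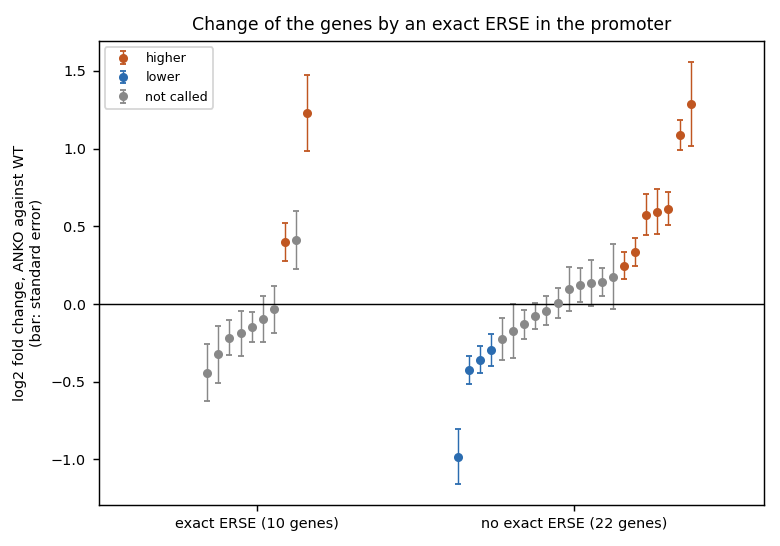
Log2 fold change of ANKO against WT (standard error as bars) for the 10 genes with an exact ERSE in the promoter and the 22 without, each sorted by value. In the ERSE set 8 of 10 are grey (not called) and the 2 higher genes are Ero1lb and Derl3.

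Further genes of the same pathway, in 5 lists with 135 genes, gave 28 higher and 45 lower of 134 tested, with a median log2 fold change of -0.18. These are 20.9% higher and 33.6% lower, beside 30.6% and 27.6% of all genes. Most lay at 10 to 100 CPM in WT, where 19 of 92 were higher and 27 lower (19.7% and 38.1% of all genes at that level), or at 100 CPM or more, where 1 of 30 was higher and 16 lower (6.61% and 62.3%). In the ERAD list 13 of 28 were lower (46.4%) and 0 were higher, with 9 of 20 lower at 10 to 100 CPM and 3 of 7 at 100 CPM or more. Svip, an inhibitor of p97-dependent degradation, was 2.59-fold lower (38.7 ± 3.09 to 14.9 ± 1.80 CPM), the ubiquitin ligase Rnf5 2.16-fold lower and Erlin2, which targets inositol trisphosphate receptors for degradation, 1.81-fold lower. Among other folding helpers 11 of 40 tested were higher and 13 lower, and Clgn was too low to be tested. The sulfhydryl oxidase Qsox1 rose 2.98-fold (24.9 ± 1.13 to 74.3 ± 7.14 CPM), the torsin ATPase Tor3a 3.37-fold and the collagen-associated calcium-binding protein Rcn3 2.70-fold. The thioredoxin-like Tmx4 fell 2.80-fold (127 ± 23.2 to 45.4 ± 6.11 CPM), the peroxidase Gpx8 2.49-fold and the isomerase Pdia5 2.21-fold.

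Glycan processing and translocation were also mixed. In glycan transfer and trimming 5 of 19 were higher and 4 lower, beside 30.6% and 27.6% of all genes tested. Ganab, the catalytic subunit of glucosidase II that prepares glycans for the lectins, fell 1.97-fold (238 ± 34.8 to 121 ± 6.39 CPM), with Mcfd2 1.71-fold and the oligosaccharyltransferase subunit Magt1 1.47-fold lower. The glycoprotein sensor Uggt2 was 1.52-fold higher, Ostc 1.40-fold and Ddost 1.22-fold. Ddost was called in 3 of the 8 fits without 1 library, those without WT3, WT4 or ANKO1, with adjusted p up to 0.101 over the 8. Ostc lost its call without ANKO4 (adjusted p = 0.0509). Among translocation genes 4 of 22 were higher and 6 lower: Tram2, a translocon partner used in collagen synthesis, rose 3.203-fold, the signal peptidase subunit Spcs3 1.66-fold and Tram1 1.41-fold, while Sec61a2, Ssr2 and Sec62 fell 1.61-fold, 1.605-fold and 1.57-fold. With the muscle covariate these 6 translocation genes, Uggt2, Ostc, Mcfd2 and Rnf5 lost their calls without a change of sign. Tram2 (log2 fold change 1.08, edgeR adjusted p = 0.0571), Sec61a2 (-0.54, adjusted p = 0.0535) and Rnf5 (-0.73, adjusted p = 0.0894) were then near the threshold, and the other 7 had adjusted p from 0.123 (Tram1, 0.35) to 0.689 (Uggt2, 0.19). Uggt2 (0.38, edgeR adjusted p = 0.130) and Ostc (0.51, adjusted p = 0.0554) also lost theirs without WT3 and WT4.

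The last list, signalling genes of all branches together with targets of the PERK branch, had 8 of 25 genes higher and 9 lower. These are 32% and 36%, beside 30.6% and 27.6% of all genes tested. Chac1, a glutathione-degrading enzyme induced by ATF4 and CHOP, had the largest change: 1.24, 1.09, 0.671 and 0.683 CPM in WT1 to WT4 and 11.7, 7.72, 7.76 and 8.74 CPM in ANKO1 to ANKO4. The groups were far apart (10.1-fold, log2 fold change 3.33 ± 0.26 SE, edgeR adjusted p = 3.76e-06), from 22 to 30 counts in WT. Trib3, a pseudokinase that restrains ATF4, rose 2.34-fold, Atf3 2.16-fold and Ddit3, the gene of CHOP, 1.43-fold (24.2 ± 2.31 to 34.6 ± 4.11 CPM, edgeR adjusted p = 0.00267). Atf4 itself fell 1.52-fold at the transcript level (212 ± 52.2 to 139 ± 7.27 CPM, adjusted p = 0.00866) and lost its call with the muscle covariate (-0.08, adjusted p = 0.834). Sesn2, another target of ATF4, fell by 1.58 on the log2 scale. Asns, of the same list, fell 2.02-fold (79.6 ± 5.7 to 39.2 ± 9.2 CPM, edgeR adjusted p = 0.000352). Of the phosphatase subunits that reverse PERK signalling, the constitutive Ppp1r15b fell 2.80-fold (493 ± 45.8 to 176 ± 11.2 CPM), and the inducible Ppp1r15a (GADD34) was not called (log2 fold change -0.37, adjusted p = 0.0693), though it was called lower without WT3 (adjusted p = 0.0141). Wfs1, an ER membrane protein induced in this response, rose 2.59-fold, and the stress kinase Map3k5 fell 2.03-fold.

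**Figure D5:**
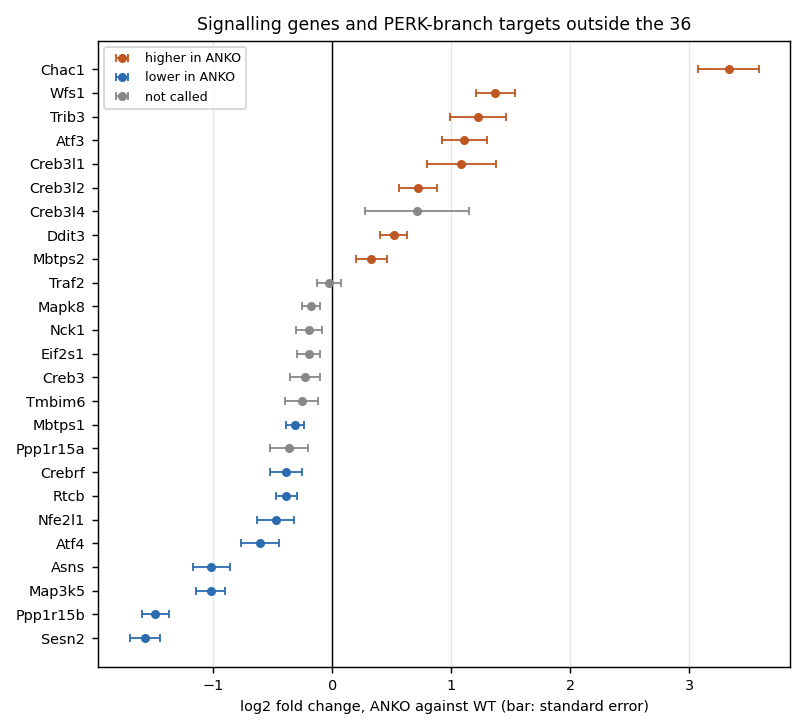
Log2 fold change of ANKO against WT (standard error as bars) for the 25 signalling genes and PERK-branch targets outside the 36, sorted by value. Chac1 stands apart at 3.33, with Ddit3, Atf3 and Trib3 on the higher side and Atf4 and Sesn2 on the lower side.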

How the data were processed

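The submitters' processing notes name STAR 2.0.4b, featureCounts 1.45 (Subread) and GRCm38. For strandedness, multi-mapping reads and the annotation release nothing is given in the sources used here, so the counts may mix a gene with an overlapping neighbour, an antisense gene or a close copy. Per the file headers, each library's deposited table holds the count, the CPM and the RPKM of every gene. The deposited CPM and RPKM follow from the count and the gene length within 1e-09 and were not used. The 355 rRNA rows (0.801% to 3.53% of counts) were left out.

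Symbols came from GENCODE M21 by Ensembl ID (40254 of 41388 matched). Counts were tested with edgeR 4.0.16 (filterByExpr, TMM, quasi-likelihood, no covariate, R 4.3.3) over 16705 genes, 4 WT against 4 ANKO mice, and the fit was tested on simulated data. CPM were recomputed on scaled library sizes, and RPKM from these and the deposited length. Standard errors derive from the F statistic. A level of 3 counts was 0.0626 to 0.527 CPM. The 36 genes, the gene lists and the tests were chosen with earlier results of these data known. Values in every library are given for Hspa5, Xbp1 and the 5 called genes with the largest change in each direction, and in the other lists up to 3 called genes per direction plus 5 fixed genes are named. Asns and the named cell type markers were chosen after values were seen. So were the disulfide sum without P4hb and the comparison of WT3 and WT4 with WT1 and WT2. Alternatives were other scalings and filters, DESeq2 1.42.0, limma-voom (limma 3.58.1), a replicate block, left-out libraries, a muscle covariate (the mean log2 CPM of 16 muscle markers), thinning, and a threshold of 0.01. Promoters came from RefSeq's GRCm38.p6 table, searched on both strands.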

Additional observations from a re-analysis of the deposited data

Results flagged for a closer look

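Within the groups of 4, 3 values stood apart from the other libraries of their group by Dixon's test at the 95% level, among 134 groups checked, of which chance flags about 1 in 20. Sec61b, a translocon subunit, read 8.81 CPM in WT1 against 10.8 to 11.1 CPM in the other WT libraries. Tram1, which helps proteins enter the translocon, read 93.2 CPM in ANKO4 against 83.2 to 84.6 CPM in the other ANKO libraries. Ppp1r15a, the inducible subunit that ends PERK signalling, read 16.1 CPM in ANKO2 against 22.0 to 23.2 CPM in the other ANKO libraries.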

How the results depend on the processing

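No sign of a called gene among the 36, or among the 31 other named genes (Asns not included), turned under any of the 22 settings. With the muscle covariate 4 of the 36 were higher and 0 lower (edgeR; 9 and 6 without it), 11 and 12 of the other pathway genes were higher and lower (28 and 45 without it), and the median log2 fold change of the members tested (all 36) was 0.16 (-0.01 without it). Library totals alone gave 2 lower genes (2940 of all 16705 genes) and a median of 0.18. Thinning to the lowest total gave 3 lower genes (2506 of all 13693 genes then tested) and a median of 0.10. The median was 0.0811 with upper quartile factors, -0.0679 with no filter on low counts (6 higher and 7 lower) and 0.0623 without WT3 and WT4; the cause was not tested. Allowing 1 mismatch raised the share of promoters with an ERSE to 50%. With 1 library left out, the 36 gave 7 to 10 higher and 5 to 7 lower genes with a median of -0.0679 to 0.0323. The other pathway genes gave 22 to 24 higher and 38 to 60 lower in these fits. Over all genes these fits gave 4780 to 5555 higher and 4098 to 4912 lower. At an adjusted p under 0.01, 7 of the 36 were higher and 4 lower, beside 4091 and 3180 of all genes tested. Replicate numbers are shared by the groups, but same-numbered libraries correlated at -0.0851 to 0.0778, so they were not taken as pairs. The replicate block gave 10 higher and 7 lower genes among the 36, 24 and 40 among the others, and 4961 and 4278 among all genes. In the 36 it added calls for Hspa5, Manf, Creld2 and Syvn1 and lost Os9 and Selenos. Depth limits Derl3, Sec61g and Sdf2l1 most, with 16 to 226 counts per library. No protein table was used here, so protein ends were not compared.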
